A study of Mus musculus with 4 samples.

Results

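Flavin-containing monooxygenases are the subject here: 4 genes, Fmo1, Fmo2, Fmo4 and Fmo5, of the 22910 genes that could be named on the array, measured by 7 probes. They were chosen by gene name with the measured array signals already known, among them the low Fmo2 signal in 20-fold iodine, so the iodine differences of the 4 genes are given as descriptions and carry no test. The study asked how excessive iodine intake affects the developing mouse brain. RNA came from the dorsal hippocampus of female mice after a series of behavioural tests, with 2 arrays of control mice (replicates 2 and 3) and 2 of mice on 20-fold iodine intake (replicates 2 and 3), each labelled with Cy3 on an Agilent 1-colour array. Strain, age, and the form and duration of the iodine supply are not given in the sources used here. Whether each replicate is a different animal is not stated either. A p-value here therefore covers the spread among these 4 arrays alone, and that spread may be technical.

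These enzymes sit in the membrane of the endoplasmic reticulum and use FAD, NADPH and oxygen to oxidise nitrogen and sulphur atoms of drugs, food amines and some metabolites. Liver, lung and kidney are their best known sites, and brain holds them at low levels. Fmo1 also converts hypotaurine to taurine, Fmo2 is the main form in lung, Fmo5 inserts oxygen next to carbonyl groups, and Fmo4 is a form of low abundance with few known substrates. In the gene table Fmo4, Fmo1, Fmo2 and Fmo6 follow each other on chromosome 1 with 0 other coding genes between them. Gm4846, Gm4847 and Fmo9 lie further along it, while Fmo5 is on chromosome 3.

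The 4 arrays were alike in brightness. Their 75th percentiles of processed signal were 144 to 159, and each array had 37532 to 37918 of its 56601 probes flagged as well above background, a flag that the scanner software sets when a spot clearly exceeds its background. Among hippocampal neuron markers, Prox1 of the dentate gyrus had normalized log2 signals of 8.06 to 8.52 and Neurod6 of pyramidal neurons 9.74 to 10.16. Controls and iodine samples lay side by side on 1 slide in 1 scan, in separate columns, so position and group cannot be told apart.

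Of the 7 probes, 3 were well above background on at least 2 arrays and so entered the fit: A_52_P508991 of Fmo1, A_51_P301998 of Fmo2 and A_55_P1959595 of Fmo5. The other 4 probes, a second probe each of Fmo1, Fmo2 and Fmo5 and the single probe of Fmo4, were well above background on 0 arrays. Levels are not compared between genes, because probes differ in how strongly they bind.

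**Figure D1:**
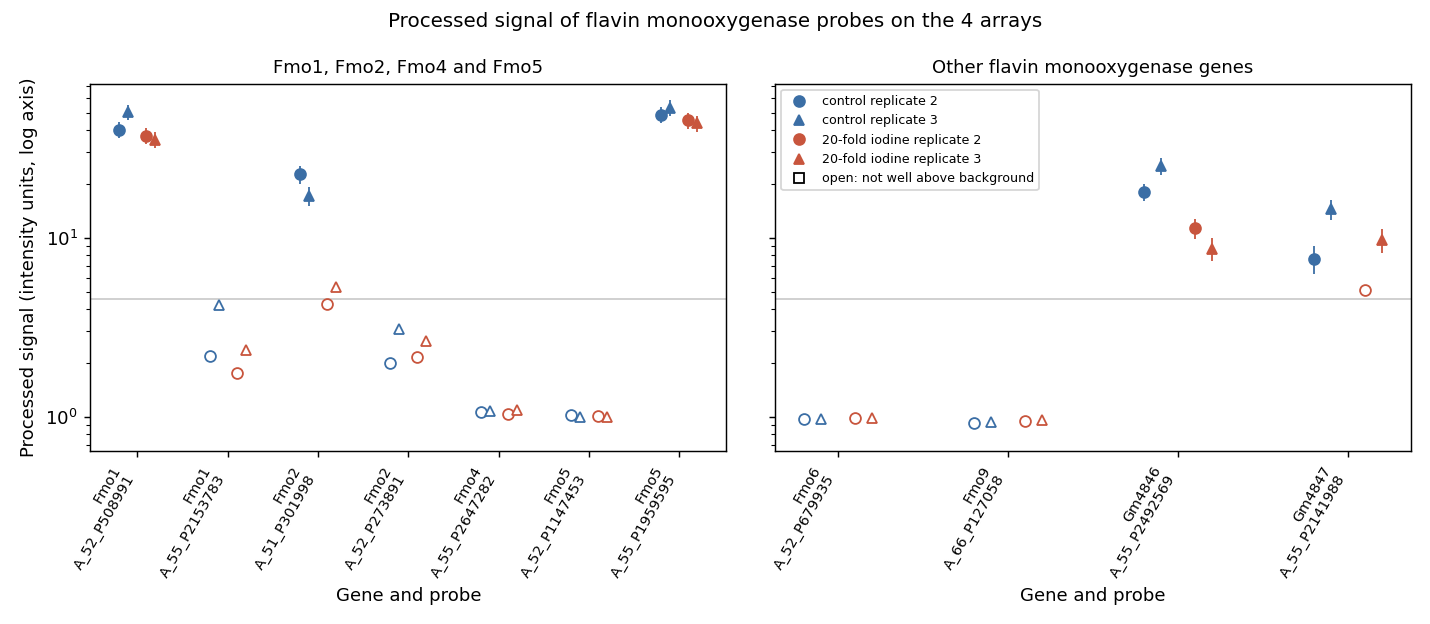
Processed signal (intensity units, log axis) of the 7 member probes and of probes of Fmo6, Fmo9, Gm4846 and Gm4847 on each array, control in blue and 20-fold iodine in red, circles for replicate 2 and triangles for replicate 3; open symbols are not well above background, bars are the scanner software's error of filled points, and the thin grey band spans the lowest well-measured signals of the arrays (4.47 to 4.63). For Fmo2 probe A_51_P301998 the controls sit at 22.6 and 17.1 and the iodine samples at 4.24 and 5.34, while Fmo1 and Fmo5 stay well above the band on all arrays.

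Fmo2, the lung form of the family, was measured in controls and lay near the detection limit in iodine. Probe A_51_P301998 had processed signals of 22.6 in control replicate 2, 17.1 in control replicate 3, 4.24 in iodine replicate 2 and 5.34 in iodine replicate 3. The scanner software gave these signals errors of 2.52, 2.05, 1.18 and 1.26. These are errors of single spots and do not cover the spread between arrays. Both control signals lay above both iodine signals, as was known when Fmo2 was chosen.

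The unprocessed spots showed the same order. The spot's median brightness was 39 and 31 on the control arrays, then 20 and 21 on the iodine arrays, against local backgrounds of 16, 15, 15 and 16 on the same arrays. The iodine spots were therefore a few units above their surroundings. Each of the 4 signals still exceeded all 308 negative control spots of its array, whose highest signals were 1.17 to 2.17. The iodine signals were positive and significant by the software's weaker flag, but not well above background.

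After scaling each array to its 75th percentile, the Fmo2 probe had normalized log2 signals of 4.43 and 4.07 on the control arrays, compared with 2.10 and 2.49 on the iodine arrays. The measured difference, iodine minus control, was -1.96 ± 0.20 (SE of the fit, n = 2 per group). Here and below, the fit (limma) draws each probe's variance toward that of all fitted probes, so an SE is not the probe's own spread alone. With an intensity trend and robust variances the SE was 0.25. The iodine signals were not well above background, so the size of the difference is uncertain. An iodine signal below its array's lowest well-measured signal was raised to that level, and Fmo2 signal was then 3.71-fold higher in controls. Only iodine replicate 2 was raised, since replicate 3 (2.49) lay above that level (2.24). This fold makes no allowance for measurement error and is not a lower bound. The 2 controls differed by 0.36 and the 2 iodine samples by 0.38. In the tenth of kept probes that holds Fmo2 by brightness, the second dimmest, replicates differed by a median of 0.23 in either group, with 95th percentiles of 0.71 in controls and 0.74 in iodine. The Fmo2 replicates thus differed by more than the median dim probe did and by less than its 95th percentile. In this bulk tissue, fewer cells that express Fmo2 and less Fmo2 RNA per cell cannot be told apart.

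The second Fmo2 probe did not show the difference. A_52_P273891, designed to the same RefSeq transcript (NM_018881), gave control signals of 2.00 and 3.11 and iodine signals of 2.16 and 2.65. All 4 were positive and significant by the software's weaker flag, and each exceeded at least 307 of the 308 negative control spots of its array. These values overlap between groups, and 0 of the 4 were well above background, so no fold is given for the probe. The description of Fmo2 therefore rests on 1 probe with 1 spot per array.

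RefSeq lists 2 start sites for Fmo2, 265 bases apart. The positions of the Fmo2 probes within its transcripts are not known here, so neither is which of these transcripts they measure. Both promoter windows are shown because Fmo2 is the member that went from well above background in controls to not well above it in iodine. Each holds 250 bases before and 50 after a start in assembly GRCm38.p6, and the windows share 35 bases. The window of Fmo5, which was measured on all arrays with a far smaller difference, stands beside them. Capitals mark matches, on either strand, to the motifs searched: the glucocorticoid receptor half-site AGAACA, the antioxidant response element core TGACNNNGC, the dioxin response element core GCGTG and the TATA box TATAAA.
Fmo2, upstream start, chr1:162898709-162899008, minus strand: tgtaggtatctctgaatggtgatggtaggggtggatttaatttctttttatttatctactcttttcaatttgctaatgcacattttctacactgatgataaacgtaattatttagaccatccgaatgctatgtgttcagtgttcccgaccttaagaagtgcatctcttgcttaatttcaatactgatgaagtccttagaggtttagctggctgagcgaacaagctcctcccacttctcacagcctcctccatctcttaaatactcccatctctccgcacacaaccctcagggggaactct
Fmo2, downstream start, chr1:162898444-162898743, minus strand: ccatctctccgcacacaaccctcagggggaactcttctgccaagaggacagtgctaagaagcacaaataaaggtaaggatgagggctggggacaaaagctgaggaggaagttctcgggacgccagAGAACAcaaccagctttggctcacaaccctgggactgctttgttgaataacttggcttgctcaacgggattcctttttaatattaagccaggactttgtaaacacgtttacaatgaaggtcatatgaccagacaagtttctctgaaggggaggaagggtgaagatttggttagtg
Fmo5, chr3:97628769-97629068, plus strand: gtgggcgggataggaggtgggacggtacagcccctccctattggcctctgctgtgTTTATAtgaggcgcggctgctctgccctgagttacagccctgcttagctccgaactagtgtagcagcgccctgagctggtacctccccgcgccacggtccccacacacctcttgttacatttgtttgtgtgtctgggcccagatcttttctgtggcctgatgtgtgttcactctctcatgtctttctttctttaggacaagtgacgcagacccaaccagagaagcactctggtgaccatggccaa

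The downstream Fmo2 window holds 1 match, a glucocorticoid receptor half-site at position -125 from the start, and the upstream window holds 0. Of 32851 promoter windows of this length, 19.0% hold that half-site. The Fmo5 window holds 1 match to the TATA box on the other strand, at position -195, which 13.6% of windows have. The dioxin response core (32.4% of windows) and the antioxidant response core (12.4%) were in none of the 3 windows. A match of such short letters is a description of the sequence and does not mark a bound site. Fmo4 also has a window in the table, with 0 matches, and its probe was not detected.

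Fmo1, which oxidises drugs and makes taurine, was measured on all arrays and differed little between groups. Probe A_52_P508991 gave control signals of 40.2 and 50.3 and iodine signals of 37.1 and 35.2. On the normalized log2 scale these were 5.26 and 5.63 against 5.23 and 5.21. Control replicate 3 stood apart from the other arrays, which lay between 5.21 and 5.26. The difference was -0.22 ± 0.15 (SE, n = 2 per group). It was -0.040 without control replicate 3 and -0.41 without control replicate 2. The second Fmo1 probe, A_55_P2153783, gave 2.20 and 4.20 on the control arrays, then 1.77 and 2.37 on the iodine arrays, all of them not well above background, again with the highest signal in control replicate 3.

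Fmo5, the form that oxidises ketones, was also measured on all arrays. Probe A_55_P1959595 gave control signals of 48.5 and 53.1 and iodine signals of 45.2 and 43.6, or 5.53 and 5.71 against 5.52 and 5.52 in normalized log2 signal. The groups did not overlap, but control replicate 2 was barely above the iodine samples. The difference was -0.10 ± 0.10 (SE, n = 2 per group), and it was -0.018 without control replicate 3 and -0.19 without control replicate 2. The other Fmo5 probe, A_52_P1147453, had 0.995 to 1.02 on the 4 arrays. That is the level of negative control spots, whose mean was at most 1.01 on each array.

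Fmo4 was not detected. Its probe A_55_P2647282 gave control signals of 1.06 and 1.08 and iodine signals of 1.03 and 1.09, and between 73.1% and 85.4% of negative control spots were dimmer on each array. These signals have no order between groups, and a low level of Fmo4 RNA cannot be distinguished from background here.

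Set against the whole array, 3 of the 3 kept member probes were lower in iodine without overlap between groups. That is a property of 18.4% of all 38228 kept probes (7049), while 23.2% were higher without overlap, 41.6% did not overlap in either direction and 47.6% were lower by any amount. The members were chosen with these values known, and nothing is read from the count. Over the whole array, 0% of kept probes passed 0.05 with limma's adjusted p (Benjamini-Hochberg over all kept probes), against 9.02% (3450 probes) with an unadjusted p under 0.05, of which the lower ones made up 3.14% of kept probes. The smallest adjusted p over the array was 0.517. With an intensity trend and robust variances in limma, 53 probes passed, and with normexp background correction 25 passed. A step from well above background on both control arrays to neither iodine array, as for Fmo2, occurred in 0.589% of kept probes (225), and the reverse step in 0.306% (117). The Fmo2 probe was kept through the control arrays alone, and Fmo2 was chosen with its low iodine signal known. Both shares are taken over bright and dim probes alike, while Fmo2 was dim. They therefore do not show how unusual the Fmo2 step is.

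**Figure D2:**
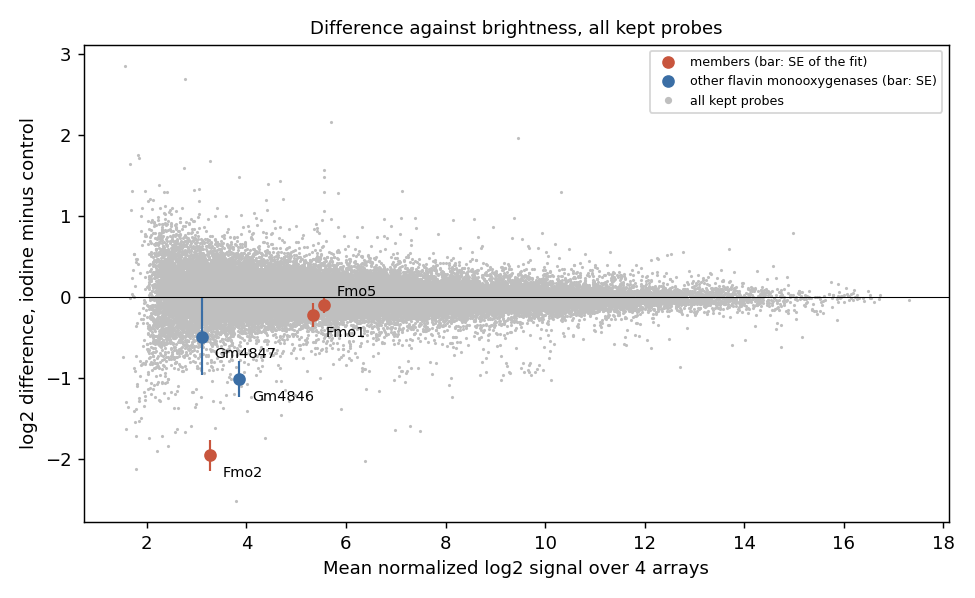
log2 difference (iodine minus control) against the mean normalized log2 signal over the 4 arrays for all 38228 kept probes in grey, with the kept probes of the 4 genes in red and of other flavin monooxygenases in blue; bars are the SE of the fit. Fmo2 lies at -1.96 among dim probes, where the grey cloud is widest, and Fmo1 and Fmo5 lie within the cloud at -0.22 and -0.10.

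The rest of the family was partly detected. Among the other flavin monooxygenase genes, 2 had a kept probe, and these were Gm4846 and Gm4847, listed under the older names Fmo13 and Fmo12. Gm4846 gave control signals of 18.0 and 25.0 and iodine signals of 11.3 and 8.71, well above background on all 4 arrays. Both controls were brighter than both iodine samples. Its difference was -1.01 ± 0.22 (SE, n = 2 per group), and it did not pass limma's adjusted threshold over all kept probes (adjusted p = 0.517). Gm4847 gave control signals of 7.64 and 14.5 and iodine signals of 5.12 and 9.68. Its groups overlapped, iodine replicate 2 was not well above background, and the difference was -0.49 ± 0.48 (SE). With 0 of 2 past the threshold, both values were lower in iodine, as were 54.3% of the 16793 genes represented by a single probe.

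Fmo6 and Fmo9 gave no measurable signal. Their probes lay at 0.923 to 0.990 on all arrays, at the level of the negative controls. Neither probe was well above background on any array.

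Genes of the enzymes' cofactor supply differed in both directions, with medians of -0.13 and -0.03. All 5 genes of riboflavin uptake and FAD synthesis were measured, 2 higher and 3 lower in iodine, with a median difference of -0.13 and 0 past limma's adjusted threshold. The median over all genes was -0.01. Slc25a32, a mitochondrial carrier of folate linked to FAD, had -0.18 ± 0.10 (SE), with another probe at 0.43, and Rfk, which turns riboflavin into FMN, -0.13 ± 0.10, with another probe at 0.04. The 11 NADPH supply genes had a median of -0.03, 4 higher and 7 lower, with 0 past the threshold. Without overlap between groups, 2 of the FAD genes were lower and 2 higher, and 5 of the NADPH genes were lower and 1 higher. Over the array, 39.8% of genes did not overlap in either direction. H6pd, which makes NADPH inside the endoplasmic reticulum, had 0.18 ± 0.11, and Aldh1l1, a folate enzyme of astrocytes, -0.17 ± 0.10.

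Other drug-metabolising genes differed in either direction. Of 19 cytochrome P450s and their electron donors, 16 were measured, 7 higher and 9 lower, with a median difference of -0.01 and 0 past the adjusted threshold. Cyp46a1, which turns over cholesterol in neurons, had 0.31 ± 0.12 (SE), and Cyp2j9, an epoxygenase, -0.29 ± 0.13. Por, the electron donor of the P450s, had -0.09 ± 0.08. Of 19 conjugating and other enzymes, 18 were measured, 6 higher and 12 lower, with a median of -0.13 and 0 past the threshold. The glutathione transferase Gstt1 had -0.45 ± 0.14, from control log2 signals of 8.84 and 8.87 and iodine ones of 8.24 and 8.59, and the microsomal Mgst3 had -0.30 ± 0.11. The lowest value of the list was that of the sulphotransferase Sult1a1, -0.57 ± 0.27, with its other kept probe at -0.54, followed among the rest by Mgst1 at -0.36 ± 0.22. Among the P450 genes the lowest was Cyp1b1, at -0.43 ± 0.36 with overlapping groups.

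In taurine and sulphur amino acid metabolism, the pathway that Fmo1 feeds into, all 12 genes were measured, 3 higher and 9 lower, with a median of -0.06 and 0 past the threshold. Cth, which makes cysteine, had -0.20 ± 0.11 (SE) and the thiosulphate sulphurtransferase Tst 0.14 ± 0.08. The list of transcription factors of drug-metabolising genes also holds Keap1 and Tiparp, which are not transcription factors. Of its 11 genes, 8 were measured, 1 higher and 7 lower, with a median of -0.11 and 0 past the threshold. Keap1 (-0.03) and Tiparp are among those 7, so the counts and the median are not those of transcription factors alone. Tiparp, a target of the dioxin receptor, had -0.38 ± 0.12 and Nr1i3, the receptor CAR, -0.28 ± 0.10. The antioxidant factor gene Nfe2l2 had -0.35 ± 0.17.

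Most glucocorticoid-responsive genes had lower values in iodine. All 20 were measured, 1 higher and 19 lower, with a median difference of -0.32. Between the groups 10 of 20 did not overlap, all of them lower. Over the array, 39.8% of genes did not overlap in either direction, and 18.4% of kept probes were lower without overlap. An unadjusted p under 0.05 by limma was found for 8 of 20, against 6.36% of genes. None passed limma's adjusted threshold. Per1, a clock gene that glucocorticoids induce, had -0.48 ± 0.09 (SE) and Errfi1, an inhibitor of EGF receptor signalling, -0.34 ± 0.09. The list's median deviations from the 4-array mean were 0.21 and 0.04 on the control arrays, then -0.14 and -0.17 on the iodine arrays, while those of Fmo2 were larger on each array. The median was -0.23 without control replicate 2. That these genes were lower was known when the list was drawn up, so nothing is read from the counts. The part of these genes in the Fmo2 result was not tested.

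**Figure D3:**
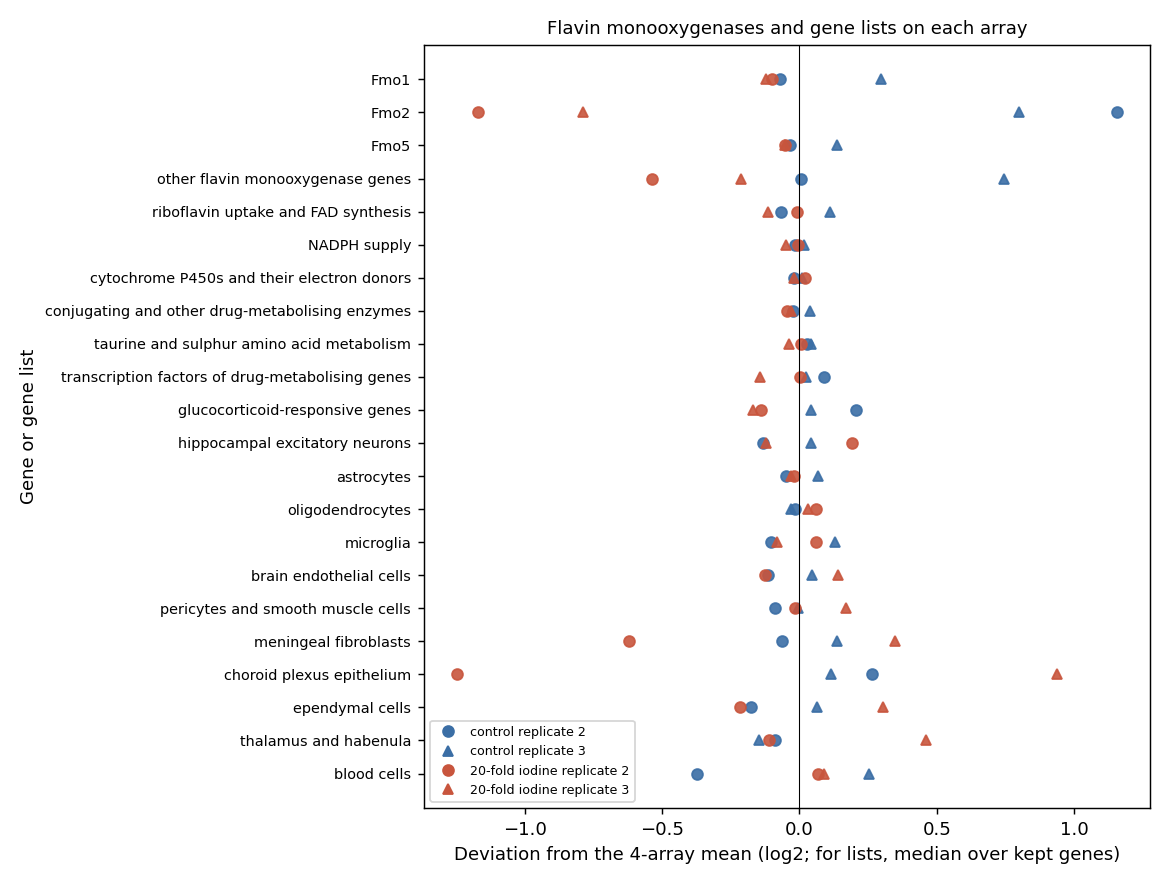
Deviation from the 4-array mean on each array (log2), for the 3 kept member probes and, as the median over kept genes, for 8 pathway lists and 11 marker lists; control in blue and 20-fold iodine in red, circles for replicate 2 and triangles for replicate 3. Both iodine samples lie left of both controls for all 3 member probes, as for 18.4% of all kept probes. They do so for 5 of the 8 pathway lists and 0 of the 11 marker lists. Some gaps are small: conjugating and other enzymes had -0.024 and 0.039 in controls against -0.047 and -0.031 in iodine. These counts were not tested, and nothing is read from them. The meningeal and choroid plexus lists place iodine replicate 2 lowest and iodine replicate 3 highest.

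Markers of cells that the dissection could hold in varying amounts are given beside Fmo2, and their part in its result was not tested. Meningeal fibroblast genes (11 of 12 measured, 9 lower, median -0.25) had median deviations of -0.06 and 0.14 on the control arrays, then -0.62 and 0.35 on the iodine arrays, with the lowest and the highest value both in iodine. Their summed linear signal was 3829 to 4804 in controls and 2772 to 4520 in iodine. Choroid plexus genes (10 of 10 measured, 10 lower, median -0.37) ran from -1.25 in iodine replicate 2 to 0.94 in iodine replicate 3, with 0.26 and 0.12 in controls, and their summed signal was 22481 to 25395 in controls and 8346 to 42032 in iodine. Without iodine replicate 2 the medians of these lists changed sign, to 0.26 and 0.73, and without iodine replicate 3 they were -0.76 and -1.47. Fmo2 was -1.76 and -2.15 in the same settings.

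The other marker lists had medians nearer to 0, apart from thalamus and habenula. Brain endothelial genes had a median difference of 0.03, 6 higher and 4 lower. They ran from Vwf at -0.35 ± 0.37 (SE) to Cldn5 of the tight junctions at 0.60 ± 0.25. Pericyte and smooth muscle genes had a median of 0.04, 5 higher and 5 lower. Without overlap between groups, 5 were higher and 0 lower, while 23.2% of kept probes on the array were higher in this way. Of these 5, Acta2 had other kept probes at -0.19 and -0.10. These counts were not tested. Astrocyte genes had a median of -0.08, microglia 0.00, ependymal cells 0.05, oligodendrocytes 0.09, hippocampal excitatory neurons 0.01, blood cells 0.16, and thalamus and habenula 0.30. These medians can hide differences in both directions. Of 10 astrocyte genes, 5 were lower and 4 higher without overlap between groups. Of 10 oligodendrocyte genes, 2 were lower and 4 higher in this way, while 39.8% of genes on the array did not overlap in either direction. The blood median was -0.19 without control replicate 2, and that of thalamus and habenula was 0.61 without iodine replicate 2 and -0.03 without iodine replicate 3. The first 2 markers of each of the 11 lists were well above background on all 4 arrays. In none of these 11 lists did any gene pass limma's adjusted threshold.

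The genes whose 4 values ran most like those of Fmo2 were sought among 16792 others. The measure was the Euclidean distance between log2 signals centred on their mean over the 4 arrays. It depends on the size of the differences as well as on their shape. By shape alone, 558 genes had a Pearson r over 0.95 with Fmo2 across the 4 arrays, so the genes named below are not its only likenesses. Rps6ka3, a growth factor signalling kinase, was nearest at a distance of 0.52, with control log2 signals of 7.37 and 7.41 and iodine ones of 4.87 and 5.85. Its 2 other kept probes, however, had differences of 0.01 and 0.13. Next came the predicted gene Gm14548 (0.68), the nucleoplasmin family gene Npm3 (0.74), Etnppl, an astrocyte enzyme that breaks down phosphoethanolamine (0.77), and Ms4a4b, a membrane protein of T cells (0.77). Etnppl was bright, at 8.76 and 8.71 on the control arrays, then 7.21 and 7.80 on the iodine arrays, and its other kept probe had a difference of -1.30, close to the -1.24 of the first. Gm14548 and Ms4a4b, like Fmo2, were well above background on 2 arrays. With 4 arrays, a ranking of this kind describes these samples only.

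**Figure D4:**
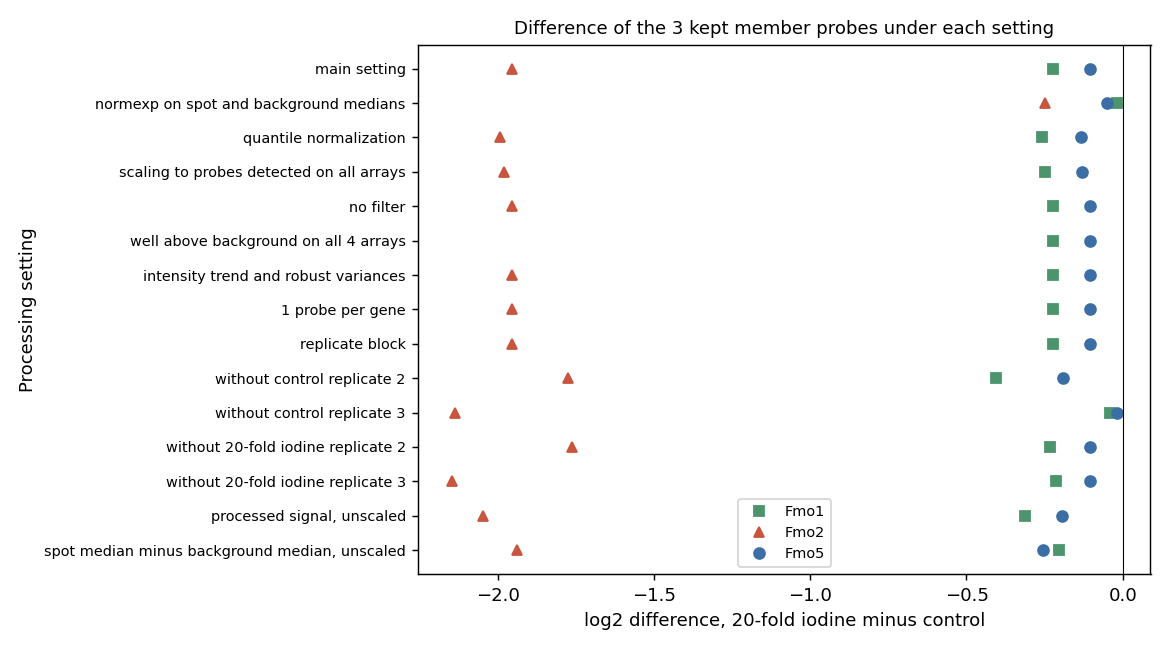
log2 difference (iodine minus control) of the 3 kept member probes under each processing setting, with Fmo1 as squares, Fmo2 as triangles and Fmo5 as circles. Fmo2 stays between -2.15 and -1.76 except with normexp background correction, where it is -0.25; the Fmo2 probe has no value where detection on all 4 arrays was required.

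Across the settings tried, the Fmo2 difference stayed negative. It was -1.99 with quantile normalization, -1.98 with scaling to probes detected on all arrays and -1.94 from the spot and background medians without scaling. Leaving out 1 array at a time gave -2.15 to -1.76. With normexp correction, which adds an offset of 50 to signals of this size, it was -0.25 ± 0.06 (SE).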

How the data were processed

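RNA was labelled with Cy3 and hybridised to 4 Agilent mouse arrays. The authors deposited each array's scanner intensity. Per the file headers the software was Feature Extraction 12.1.1.1; the processed signal is background-subtracted and detrended within the array, not normalized between arrays. Flags (other values, 0 or 1) were used as deposited. Of 62976 spots, 3671 were controls. Spots of a probe were averaged without outlier-flagged spots, and 4 of 56605 probes with no spot left on an array were left out. No spot was saturated.

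The log2 processed signals were scaled to each array's 75th percentile (mean percentile added back). Probes well above background on at least 2 arrays (38228) were fitted with limma 3.58.1 (R 4.3.3, data.table version 1.17.8, group only, two-sided, Benjamini-Hochberg threshold 0.05); the fit was tested on simulated data. An exact permutation test of 2 against 2 cannot go below p = 0.333 and was not used. Accessions were matched to RefSeq symbols (GRCm38.p6), naming 58.3% of probes; the array header names another build. Promoters came from the same RefSeq build. Listed genes are represented by their brightest kept probe. The Fmo2 fold sets the control mean against the higher, per iodine array, of the probe's signal and the lowest signal well above background.

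The members and gene lists were chosen with earlier results of these data known. Named genes were the members and their family, and the 2 genes of smallest unadjusted p in each pathway list. The 5 nearest patterns of any member ranging over at least 1 log2 unit were also named. Por, Nfe2l2, Cldn5, Vwf, Sult1a1, Mgst1 and Cyp1b1 are extra, picked once their values had been seen. The files hold the spot median, not the mean, so normexp used the median. Plots used matplotlib 3.10.9 in Python 3.11.15. The number of arrays limits the precision. Of the family, 1 item is not reported here.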

Additional observations from a re-analysis of the deposited data

How the results depend on the processing

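The count of probes past limma's adjusted threshold was 0 with the main settings and in 10 of 12 alternatives. It was 25 with normexp on spot and background medians (19 lower and 6 higher in iodine) and 53 with an intensity trend and robust variances (34 lower and 19 higher). The cause was not tested. With the replicate number as a block (replicate block) it was 0, with 3031 probes at an unadjusted p under 0.05 against 3450 without the block. Same-numbered arrays did not deviate together (r = -0.02 across 38228 probes, which are not independent), so the numbers were not taken as pairs. With normexp, Fmo2 had -0.25 and Fmo1 -0.018; the offset of 50 draws dim signals together. Fmo5 had -0.19 from unscaled processed signals and -0.26 from unscaled spot medians. Leaving out 1 array gave ranges of -2.15 to -1.76 for Fmo2, -0.41 to -0.040 for Fmo1 and -0.19 to -0.018 for Fmo5, with 0 probes past the threshold each time; the lone array is then assumed to vary like the other group. Gm4846 ranged from -1.27 to -0.22 over its 12 alternatives, the last with normexp. Named pathway genes and nearest patterns kept their sign in the alternatives run for them. Medians of lists changed sign in at least 1 alternative for 2 pathway lists (P450s, and the other flavin monooxygenases once undetected probes entered with no filter) and for 9 marker lists. The detection limit restricts what is known of Fmo2 in iodine, and of Fmo4 on all arrays.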
